A study of Mus musculus with 18 samples.

Results

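Matricellular and adhesive matrix proteins were followed by the transcripts of 9 genes: Thbs1, Thbs2, Tnc, Postn, Tgfbi, Sparc, Cthrc1, Spp1 and Fn1. They were chosen by symbol, and all 9 were found among the 18264 genes of the expression table, which names genes by symbol alone. The cells were labelled as mouse neonatal ventricular cardiac fibroblasts, the matrix-producing cells of the newborn heart ventricle. They were profiled by poly(A)-selected stranded RNA-seq in 18 libraries that form 6 groups of 3. The knockdown arm held a control siRNA group (si-NC), a Foxm1 siRNA group (si-Foxm1) and an angiotensin II group (Ang-II). It also held a group with Foxm1 siRNA and angiotensin II (si-Foxm1+Ang-II). The sample titles say si-NC, while the columns and descriptions of that group say Ctrl, so its control siRNA rests on the titles. Cells with added Foxm1 (OE-Foxm1) and their own control cells (OE-NC) made up the overexpression arm. It is not stated in the labels whether the Ang-II cells also received control siRNA. If they did not, contrasts that use the Ang-II group also differ in siRNA delivery, and that part cannot be told apart. Nor is it stated how Foxm1 was overexpressed, or at what dose and for how long angiotensin II was given. The labels give no strain or exact age, and do not say whether the 3 libraries of a group came from separate cultures. The p-values therefore measure only the spread between these libraries, which may be technical. The study asked how loss or gain of Foxm1 acts on cardiac remodelling.

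Matricellular proteins are secreted into the extracellular matrix but act mainly by adjusting how cells read it: they bind integrins, CD47, CD36 and syndecans, hold or release growth factors such as TGF-beta, and tune collagen assembly. In the heart they are made by fibroblasts during development and again after injury or pressure overload. Fibronectin, encoded by Fn1, is the adhesive glycoprotein whose fibrils form the early scaffold on which many of them and the collagens are laid down. Foxm1 is a forkhead transcription factor best known for driving genes of the G2 and M phases, and angiotensin II is a peptide hormone widely used to stimulate cardiac fibroblasts.

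The sequences before the transcription starts of Tgfbi, Spp1 and Tnc are shown because these members had the largest or most divergent responses to Foxm1 among those with a RefSeq promoter entry (GRCm38.p6). Each line gives the 250 bases upstream of an annotated start, 5′ to 3′ on the gene's own strand. Capitals mark matches to any of 6 motifs searched on both strands. These were the forkhead motif GTAAACA, the cell cycle homology region TTTGAA, the AP-1 motif (TGA, any base, then TCA), the TEAD motif CATTCC, the SMAD motif CAGACA and the TATA box TATAAA; none contains another. The windows lie at chr13:56609336-56609585 (plus strand) for Tgfbi, chr5:104434861-104435110 (plus strand) for Spp1 and chr4:64047016-64047265 (minus strand) for Tnc.
Tgfbi: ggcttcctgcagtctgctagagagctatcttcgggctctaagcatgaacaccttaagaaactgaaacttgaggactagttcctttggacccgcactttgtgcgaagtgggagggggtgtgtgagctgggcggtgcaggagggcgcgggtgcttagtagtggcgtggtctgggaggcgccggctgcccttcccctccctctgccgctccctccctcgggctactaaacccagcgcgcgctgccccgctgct
Spp1: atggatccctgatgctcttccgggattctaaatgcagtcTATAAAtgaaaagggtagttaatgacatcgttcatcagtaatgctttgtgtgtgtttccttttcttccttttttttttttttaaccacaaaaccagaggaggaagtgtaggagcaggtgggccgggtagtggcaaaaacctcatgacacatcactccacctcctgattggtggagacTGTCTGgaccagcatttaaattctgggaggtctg
Tnc: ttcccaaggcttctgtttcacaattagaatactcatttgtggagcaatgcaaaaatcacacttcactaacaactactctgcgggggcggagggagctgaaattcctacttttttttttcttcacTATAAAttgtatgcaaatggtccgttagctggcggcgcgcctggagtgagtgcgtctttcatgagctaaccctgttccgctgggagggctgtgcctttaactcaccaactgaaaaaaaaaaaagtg
The Tgfbi window held none of the 6 motifs. The printed Spp1 window held TATAAA at position -211 and TGTCTG, the reverse complement of the SMAD motif, at position -34 from the start. The printed Tnc window held TATAAA at position -126. Spp1 and Tnc each had another annotated start, whose sequence is not printed. Upstream of it, Spp1 held TTTGAA at position -216, and Tnc held TATAAA at position -205 and TGTCTG at position -71. Promoter entries were matched for 6 of the 9 members, in 9 windows of 300 bases reaching 50 bases past the start, and Thbs1, Cthrc1 and Fn1 are named only. The forkhead motif was in 0 of these 9 windows and in 3.65% of the 32851 windows of that length in the whole table. The AP-1 motif (7.81% of all windows) and the TEAD motif (14.7%) were also in 0 of the 9. The cell cycle homology motif was in 2 of 9 (Postn and Spp1) against 17.9% of all windows, the SMAD motif in 5 of 9 (Sparc, Spp1, Thbs2 and Tnc) against 21%, and the TATA motif in 5 of 9 (Postn, Spp1, Thbs2 and Tnc) against 13.6%. The windows of Tnc overlap each other, so they are not separate observations, and a match is a description of letters, not of binding.

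Levels are given in FPKM, fragments scaled to gene length and library total, and differences as limma estimates on the log2(FPKM + 1) scale, which understates the change of low genes; a difference was called at a Benjamini-Hochberg adjusted p under 0.05 over all genes tested. The libraries held 14988993 to 19343343 counted fragments. Foxm1 itself stood at 10.4, 9.64 and 10.3 FPKM in si-NC and at 6.06, 5.13 and 6.71 in si-Foxm1. It stood at 4.23, 4.03 and 5.65 in Ang-II and at 3.55, 3.36 and 3.03 in si-Foxm1+Ang-II. In the overexpression arm it stood at 15.7, 17.1 and 17.1 in OE-NC and at 399, 480 and 487 in OE-Foxm1. The targeted gene thus moved as labelled in all 3 Foxm1 contrasts, and the Ang-II group without Foxm1 siRNA also had less Foxm1 than si-NC (fell by 0.99 ± 0.10 SE, adjusted p = 2.63e-06, limma). Replicate 3 of Ang-II stood apart from the other 2 of its group, with a mean chi-square per gene of 5.03 and 5.46 against them, where all other replicate pairs gave 1.69 to 2.88. Without that library, 0 of 27 member calls in the comparisons that use Ang-II changed.

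The labelled cell type was checked against its markers. All 13 fibroblast markers were detected, and their summed level was 2194 to 3815 FPKM across the 18 libraries. The collagen genes Col1a1 and Col1a2 gave 550 to 1394 and 572 to 1231 of it, Tcf21 57.8 to 138 and Pdgfra 2.83 to 12.2. All 18 cardiomyocyte markers were detected too, and their sum was above the fibroblast marker sum in every library. It was 13740 to 14813 FPKM in si-NC, 7351 to 7810 in si-Foxm1, 10221 to 11175 in Ang-II and 5614 to 5796 in si-Foxm1+Ang-II. In OE-NC it was 7839 to 8336 and in OE-Foxm1 8796 to 9161. The member values are therefore those of a culture with much cardiomyocyte RNA, not of fibroblasts alone. Macrophage and leukocyte markers (12 of 12 detected) summed to 258.3 to 264.6 in si-NC, 130.9 to 163.5 in si-Foxm1, 313 to 343.5 in Ang-II, 129.5 to 150.1 in si-Foxm1+Ang-II, 191 to 210.8 in OE-NC and 268.9 to 305.8 in OE-Foxm1. Endothelial markers (10 of 10 detected) summed to 82.79 to 90.15 FPKM in si-NC, 99.24 to 104 in si-Foxm1, 62.13 to 68.86 in Ang-II, 70.34 to 77.96 in si-Foxm1+Ang-II, 66.75 to 74.24 in OE-NC and 79.87 to 87.58 in OE-Foxm1. Smooth muscle and pericyte markers (8 of 8) summed to 126.8 to 136.1 in si-NC, 96.39 to 108.6 in si-Foxm1, 144.3 to 165.4 in Ang-II, 124.5 to 131 in si-Foxm1+Ang-II, 135.3 to 137.9 in OE-NC and 109.4 to 116.2 in OE-Foxm1. Epicardial and mesothelial markers (8 of 8) summed to 85.59 to 91.23 in si-NC, 96.61 to 99.27 in si-Foxm1, 80.58 to 88.08 in Ang-II, 82.78 to 89.78 in si-Foxm1+Ang-II, 63.58 to 67.07 in OE-NC and 59.13 to 62.29 in OE-Foxm1. In bulk RNA, fewer cells of a type and less RNA per cell cannot be told apart. These marker sums move with several members below, and their part in those results was not tested.

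**Figure D1:**
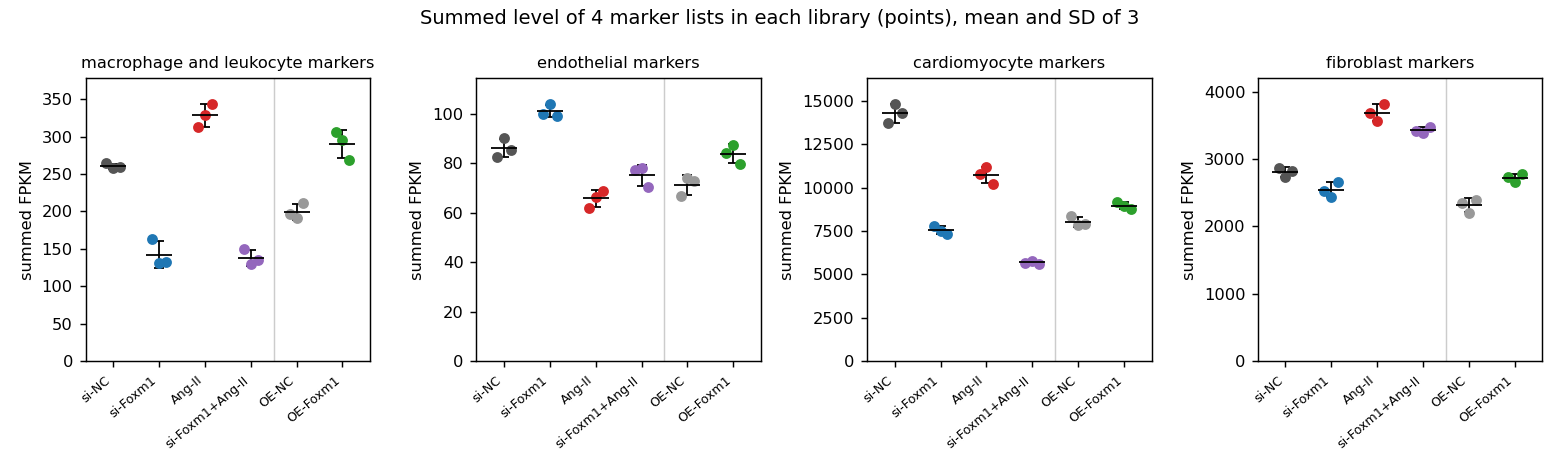
Summed FPKM of 4 marker lists in each of the 18 libraries (points), with the mean and SD of the 3 libraries of a group (bars). The macrophage and leukocyte sum is lowest in the 2 groups with Foxm1 siRNA and highest in Ang-II, and the cardiomyocyte sum is highest in si-NC and lowest in si-Foxm1+Ang-II.

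The 9 members together took 2.219% ± 0.0249 (SD, n = 3) of all counted fragments in si-NC, 2.104% ± 0.0368 in si-Foxm1, 2.718% ± 0.0377 in Ang-II and 2.662% ± 0.034 in si-Foxm1+Ang-II. In the overexpression arm they took 1.973% ± 0.0523 in OE-NC and 2.167% ± 0.0129 in OE-Foxm1. Most of this was Fn1, Sparc and Postn. By mean FPKM over the 18 libraries, Sparc ranked 6, Fn1 ranked 10 and Postn ranked 24 among all genes, while Tgfbi, the least abundant member, ranked 5947. The members differed in how far they ranged over the 6 groups. The highest group mean was 4.41 times the lowest for Cthrc1, 3.61 for Tnc, 3.36 for Tgfbi, 2.64 for Spp1 and 2.04 for Thbs1. The ratio was 1.57 for Fn1, 1.4 for Sparc and 1.16 for both Postn and Thbs2. Only for Tgfbi and Spp1 did the highest and lowest group lie in the same arm. For the other members the ratio also holds the difference between the arms, which was not tested.

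**Figure D2:**
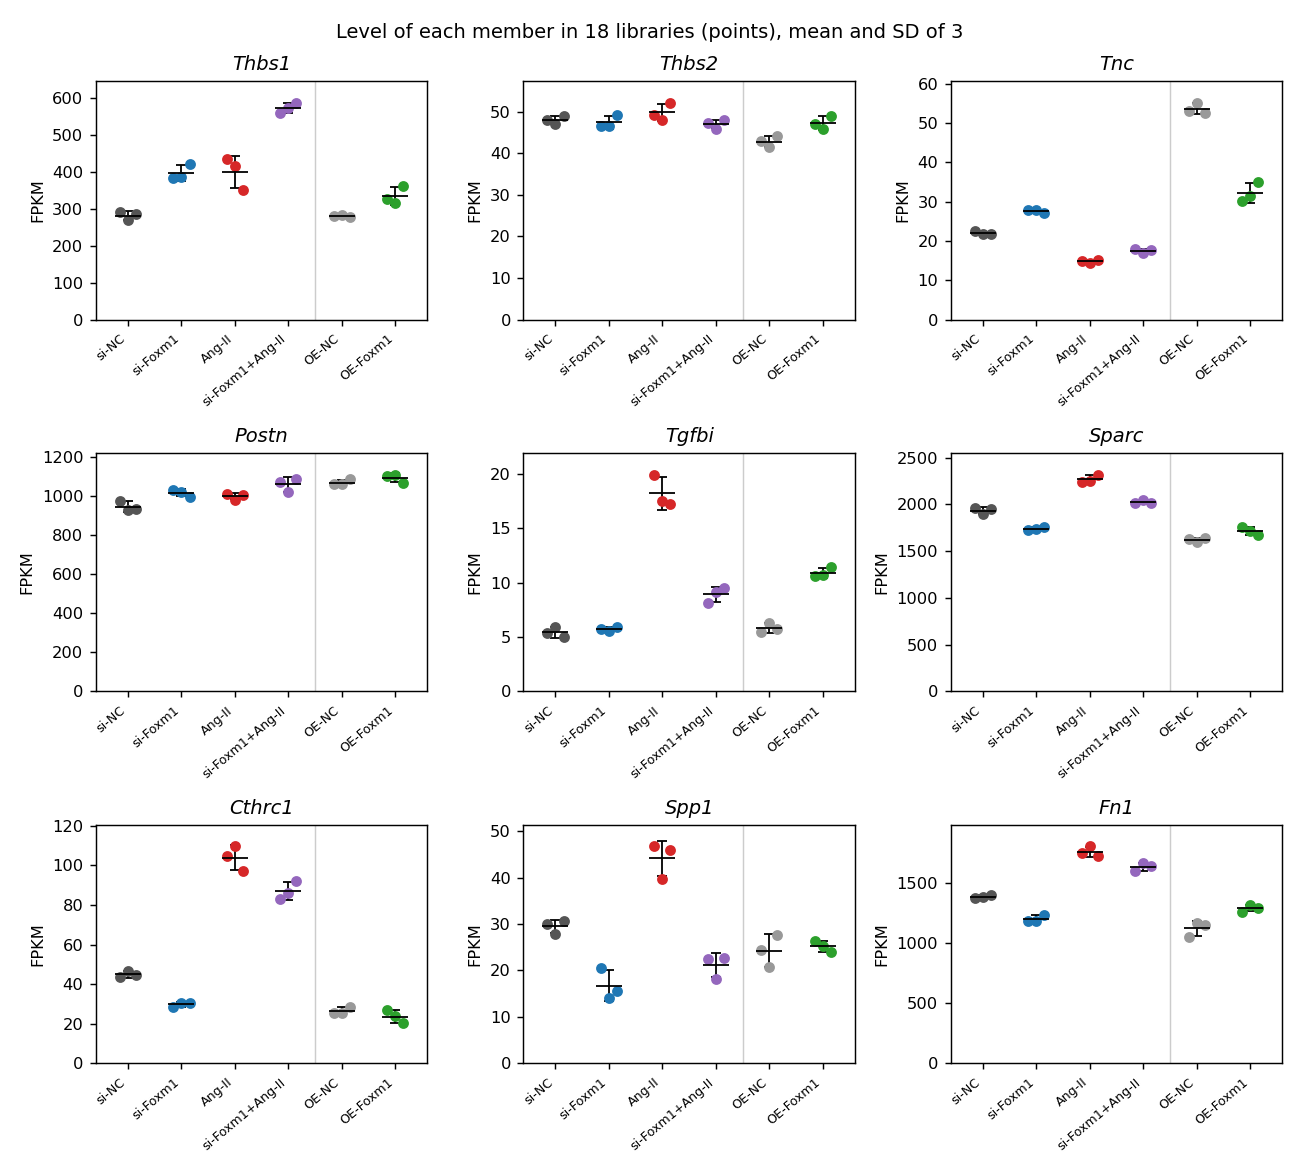
FPKM of each member in the 18 libraries (points), with the mean and SD of 3 libraries (bars), on axes that start at 0; the grey line parts the knockdown arm from the overexpression arm. Tgfbi, Cthrc1, Spp1, Sparc, Fn1 and Thbs2 have their highest mean in Ang-II, Thbs1 in si-Foxm1+Ang-II, Tnc in OE-NC and Postn in OE-Foxm1. For Thbs2 and Postn the highest group overlaps the next.

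Angiotensin II raised 6 of the 9 members (Tgfbi, Cthrc1, Spp1, Thbs1, Fn1 and Sparc) and lowered Tnc; Thbs2 and Postn did not pass the test. These 7 calls of 9 stand beside 44.5% of all 11180 genes tested that were called in Ang-II against si-NC, 15.2% of them higher and 29.2% lower. The members' median difference was 0.34 and that of all genes -0.03.

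Foxm1 siRNA in cells without angiotensin II lowered Spp1, Cthrc1, Fn1 and Sparc and raised Thbs1, Tnc and Postn. The 7 calls of 9 are close to the background, since 65.7% of all genes were called in si-Foxm1 against si-NC, 48.5% higher and 17.2% lower. Under Ang-II, the same siRNA lowered Spp1, Tgfbi, Cthrc1, Sparc and Fn1 and raised Thbs1, Tnc and Postn, 8 of 9 against 61.4% of all genes (44% higher and 17.4% lower). In these contrasts the median of all genes was 0.11 and 0.09, and median-of-ratios scaling, which moves both to 0.00, or quantile normalization changed the split of the smaller differences. The 3 higher and 4 lower members without angiotensin II became 2 and 5 under median-of-ratios scaling and 4 and 3 under quantile normalization. With angiotensin II, the 3 higher and 5 lower became 2 and 6, and 4 and 5. Over all genes, the 5418 higher and 1924 lower calls without angiotensin II became 2954 and 3273 under median-of-ratios scaling. With it, 4918 and 1942 became 3082 and 3116. The directions of Thbs1, Tnc, Cthrc1 and Spp1 were the same under both scalings, and so was that of Tgfbi under Ang-II.

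Foxm1 overexpression raised Tgfbi, Thbs1, Fn1, Thbs2 and Sparc and lowered Tnc, while Cthrc1, Spp1 and Postn did not pass the test. The 6 calls of 9 stand beside 55.1% of 11259 genes called, 27.1% higher and 28% lower. Comparisons of this arm rest on their own control and share no library with the knockdown arm. Within the knockdown arm, si-NC serves both the siRNA and the angiotensin II contrast, and Ang-II serves the angiotensin II contrast and the siRNA contrast under it, so the values of a member across these are given side by side and are not independent.

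**Figure D3:**
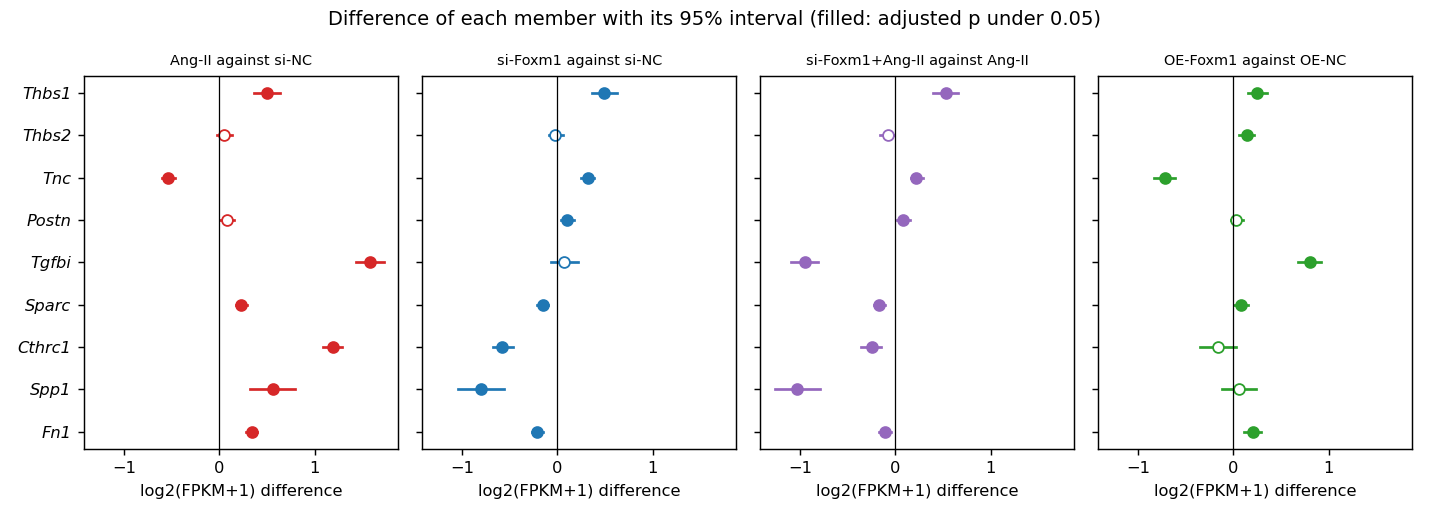
Difference of each member on the log2(FPKM + 1) scale in 4 comparisons, with its 95% interval from limma (lines); filled points passed an adjusted p of 0.05 and open points did not. Tgfbi and Cthrc1 lie farthest to the right for angiotensin II, Spp1 and Tgfbi farthest to the left for the siRNA under it, and Tnc and Tgfbi on opposite sides for overexpression.

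Thbs1 encodes thrombospondin-1, which binds CD47 and CD36 and can activate latent TGF-beta. It stood at 290.3, 268.1 and 284.8 FPKM in si-NC, 383.5, 384.2 and 421.4 in si-Foxm1, 433.4, 414.6 and 349.5 in Ang-II, and 560.0, 572.3 and 586.6 in si-Foxm1+Ang-II. Every library of the combined group lay above every other library, and si-Foxm1 and Ang-II overlapped each other above si-NC. In limma, the siRNA gave 0.49 ± 0.06 (SE, adjusted p = 1.67e-05) without angiotensin II and 0.53 ± 0.06 (adjusted p = 1.05e-05) with it, and angiotensin II gave 0.50 ± 0.06 (adjusted p = 2.61e-05). The siRNA effect differed between the backgrounds by 0.03, with a 95% interval of -0.16 to 0.23 (adjusted p = 0.922), and the combined group exceeded si-NC by 1.03 ± 0.06. The low value of Ang-II was its replicate 3; without it the angiotensin II difference was 0.59 and the siRNA difference under Ang-II 0.43, both still called. In the overexpression arm Thbs1 stood at 279.7, 284.0 and 277.2 in OE-NC and 327.3, 314.8 and 361.7 in OE-Foxm1, again without overlap (0.25 ± 0.04, adjusted p = 8.25e-04). Thus it was higher both with less and with more Foxm1 than the matched control. The endothelial marker sum was higher in the same 3 Foxm1 contrasts (99.24 to 104 FPKM in si-Foxm1 against 82.79 to 90.15 in si-NC). In Ang-II, where Thbs1 was higher than in si-NC, that sum was 62.13 to 68.86. An endothelial part in the Thbs1 values was not tested.

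Thbs2 encodes thrombospondin-2, a close relative that lacks the TGF-beta activating sequence of thrombospondin-1. It stood at 48.0, 47.1 and 48.9 FPKM in si-NC, 46.5, 46.6 and 49.1 in si-Foxm1, 49.3, 48.0 and 52.2 in Ang-II and 47.2, 45.9 and 47.9 in si-Foxm1+Ang-II. Each neighbouring pair of these groups in the order of the means overlapped, but every si-Foxm1+Ang-II library lay below every Ang-II library. In limma, the intervals were -0.09 to 0.06 for the siRNA, -0.02 to 0.13 for angiotensin II and -0.16 to -0.01 for the siRNA under it (adjusted p = 0.672, 0.251 and 0.0552). The last of these was called in 5 of its 15 alternatives, 1 of them the fit without Ang-II replicate 2 (adjusted p = 0.0259, limma). Median-of-ratios scaling brought these 3 past the threshold at -0.15, 0.10 and -0.18. OE-NC held 42.9, 41.4 and 44.1 and OE-Foxm1 47.1, 45.7 and 49.1, a rise of 0.14 ± 0.04 (adjusted p = 0.00779, limma).

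Tnc encodes tenascin-C, an anti-adhesive glycoprotein of developing and injured tissue. It stood at 22.5, 21.7 and 21.7 FPKM in si-NC, 27.8, 27.8 and 27.1 in si-Foxm1, 14.98, 14.5 and 15.1 in Ang-II and 17.9, 16.9 and 17.7 in si-Foxm1+Ang-II. OE-NC held 53.2, 55.2 and 52.6 and OE-Foxm1 30.2, 31.5 and 35.0. No 2 of the 6 groups overlapped. Tnc was the single member that angiotensin II lowered (-0.54 ± 0.03, adjusted p = 3.43e-08, limma), and it was lowered again in cells with the siRNA (-0.63 ± 0.03, adjusted p = 9.33e-09). Foxm1 siRNA raised it without angiotensin II (0.32 ± 0.03, adjusted p = 1.80e-06) and with it (0.22 ± 0.03, adjusted p = 4.28e-05), and overexpression lowered it (-0.72 ± 0.05, adjusted p = 1.35e-06). Thus the siRNA contrasts and the overexpression contrast had opposite signs, while Ang-II, which also had less Foxm1 than si-NC, had less Tnc. The OE-NC level was above the si-NC level, but the arms were not compared by a test, because arm and control cannot be told apart.

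Postn and Tgfbi encode periostin and TGF-beta-induced protein, secreted proteins built of fasciclin domains that bind integrins and collagen; periostin is a widely used marker of activated cardiac fibroblasts. Postn was abundant and nearly flat. It stood at 978.1, 928.4 and 935.5 FPKM in si-NC, 1033, 1022 and 998.7 in si-Foxm1, 1012, 983.0 and 1008 in Ang-II and 1075, 1020 and 1091 in si-Foxm1+Ang-II. Angiotensin II gave 0.08 with an interval of 0.01 to 0.15 (adjusted p = 0.0515, limma), although its 3 libraries lay just above those of si-NC. It was called in 5 of its 15 alternatives, among them median-of-ratios scaling (0.13, adjusted p = 0.0028), limma-voom on recovered counts (adjusted p = 0.0235) and the fit without si-NC replicate 1 (adjusted p = 0.0286). The siRNA gave 0.10 ± 0.03 without angiotensin II (adjusted p = 0.00963) and 0.08 ± 0.03 with it (adjusted p = 0.0297), and under median-of-ratios scaling these became -0.03 and -0.01. The second of these calls was also lost without Ang-II replicate 2 (adjusted p = 0.103), si-Foxm1+Ang-II replicate 1 (0.0906) or its replicate 3 (0.118). OE-NC held 1064, 1061 and 1087 and OE-Foxm1 1103, 1112 and 1069, which overlap (interval -0.03 to 0.10, adjusted p = 0.378).

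Tgfbi was the least abundant member and had the largest angiotensin II response. It stood at 5.35, 5.93 and 4.97 FPKM in si-NC and at 19.9, 17.5 and 17.2 in Ang-II, a ratio of the means of 3.36. The limma difference was 1.58 ± 0.07 (adjusted p = 2.16e-09), which ranked 10 by size among all rises in the 11180 genes tested. Foxm1 siRNA left it at 5.75, 5.54 and 5.90 without angiotensin II, overlapping si-NC (interval -0.07 to 0.22, adjusted p = 0.362), but at 8.13, 9.09 and 9.53 with it, below every Ang-II library (-0.95 ± 0.07, adjusted p = 6.69e-08). With the siRNA, angiotensin II still raised it, by 0.56 ± 0.07 (adjusted p = 1.71e-05). OE-NC held 5.48, 6.29 and 5.69 and OE-Foxm1 10.6, 10.7 and 11.4, a ratio of 1.87 and a limma difference of 0.80 ± 0.05 (adjusted p = 1.33e-06). These values rest on 223 to 1022 fragments per library. Macrophages also express Tgfbi, and the macrophage and leukocyte sum, like Tgfbi, was higher in Ang-II and in OE-Foxm1 than in the matched control and lower in si-Foxm1+Ang-II than in Ang-II. In si-Foxm1 against si-NC, all 9 tested markers of that list fell, with a median of -0.75, beside 17.2% of all genes called lower. Tgfbi gave 0.07 there. A macrophage part in the Tgfbi values was not tested.

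Sparc encodes osteonectin, a collagen-binding glycoprotein needed for collagen fibril maturation. It stood at 1957, 1894 and 1948 FPKM in si-NC, 1725, 1736 and 1758 in si-Foxm1, 2241, 2249 and 2320 in Ang-II and 2010, 2044 and 2014 in si-Foxm1+Ang-II, with no overlap between any of the 4 groups. Angiotensin II raised it by 0.23 ± 0.03 (adjusted p = 6.43e-06, limma), and the siRNA lowered it by -0.15 ± 0.03 without angiotensin II (adjusted p = 1.52e-04) and by -0.17 ± 0.03 with it (adjusted p = 7.70e-05). Quantile normalization put the difference without angiotensin II at 0.02, past 0 and not called. OE-NC held 1628, 1593 and 1641 and OE-Foxm1 1762, 1712 and 1674. That rise of 0.08 ± 0.03 (adjusted p = 0.0441) was not called in 8 of its 14 alternatives and was -0.03 under quantile normalization. It was lost without any of the 3 OE-NC libraries or without OE-Foxm1 replicate 1 or 2 (adjusted p = 0.0637 to 0.17).

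Cthrc1 encodes collagen triple helix repeat containing 1, a secreted protein of activated fibroblasts in injured heart. It stood at 43.5, 46.8 and 44.5 FPKM in si-NC, 28.4, 30.4 and 30.6 in si-Foxm1, 104.7, 109.7 and 97.3 in Ang-II and 83.1, 86.1 and 92.2 in si-Foxm1+Ang-II. The 4 groups did not overlap. Angiotensin II raised it by 1.19 ± 0.05 without the siRNA (adjusted p = 1.26e-09, limma) and by 1.52 ± 0.05 with it (adjusted p = 8.21e-11). The siRNA lowered it by -0.58 ± 0.05 without angiotensin II (adjusted p = 3.07e-07) and by -0.25 ± 0.05 with it (adjusted p = 5.33e-04). Overexpression had no called effect: OE-NC held 25.2, 25.3 and 28.5 and OE-Foxm1 27.0, 23.6 and 20.04, with an interval of -0.35 to 0.03 (adjusted p = 0.143). Without OE-Foxm1 replicate 1, the highest of its 3, the difference was -0.26 and passed the test (adjusted p = 0.0146).

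Spp1 encodes osteopontin, an integrin and CD44 ligand made by fibroblasts and, in the injured heart, by macrophages. It stood at 30.1, 27.9 and 30.6 FPKM in si-NC, 20.4, 14.1 and 15.6 in si-Foxm1, 46.7, 39.8 and 45.9 in Ang-II and 22.5, 18.2 and 22.7 in si-Foxm1+Ang-II. Both siRNA groups lay below si-NC, and every Ang-II library lay above it. The siRNA lowered Spp1 by -0.80 ± 0.11 (adjusted p = 2.84e-05, limma) without angiotensin II and by -1.03 ± 0.11 with it (adjusted p = 3.28e-06), the largest falls among the 9 members in both contrasts. Angiotensin II raised it by 0.56 ± 0.11 (adjusted p = 9.47e-04). In cells with the siRNA, angiotensin II gave 0.33 ± 0.11 (adjusted p = 0.0235), a call lost without si-Foxm1 replicate 2 or 3 or without si-Foxm1+Ang-II replicate 1 or 3 (adjusted p = 0.0776 to 0.118). OE-NC held 24.4, 20.7 and 27.7 and OE-Foxm1 26.3, 25.3 and 24.0, which overlap (interval -0.12 to 0.24, adjusted p = 0.557). All 9 tested macrophage and leukocyte markers fell in both siRNA contrasts, with medians of -0.75 and -0.83, beside 17.2% and 17.4% of all genes called lower. Under overexpression 5 of them rose and 3 fell, beside 27.1% and 28% of all genes. A macrophage part in the Spp1 values was not tested.

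Fn1 stood at 1380, 1384 and 1401 FPKM in si-NC, 1187, 1184 and 1237 in si-Foxm1, 1748, 1808 and 1729 in Ang-II and 1598, 1666 and 1646 in si-Foxm1+Ang-II, with no overlap between the 4 groups. Angiotensin II raised it by 0.34 ± 0.03 (adjusted p = 4.91e-07, limma) without the siRNA and 0.44 ± 0.03 with it (adjusted p = 5.95e-08). The siRNA gave -0.21 ± 0.03 without angiotensin II (adjusted p = 2.59e-05) and -0.11 ± 0.03 with it (adjusted p = 0.00514). Quantile normalization turned both siRNA differences to 0.14 (adjusted p = 5.28e-04 in each), whereas median-of-ratios scaling gave -0.34 without angiotensin II. OE-NC held 1052, 1168 and 1149 and OE-Foxm1 1264, 1316 and 1294 (0.20 ± 0.04, adjusted p = 0.0017). The fibroblast marker sum took the same order as Fn1 in the knockdown arm, at 2435 to 2663 FPKM in si-Foxm1, 2733 to 2874 in si-NC, 3386 to 3475 in si-Foxm1+Ang-II and 3560 to 3815 in Ang-II. It was 2194 to 2394 in OE-NC and 2665 to 2776 in OE-Foxm1. Its members did not move together, since angiotensin II raised 5 and lowered 7 of the 13. Col1a1 stood at 718 to 756 FPKM in si-NC and 1314 to 1394 in Ang-II. Tcf21 stood at 125 to 138 and 61.8 to 82.3, and Pdgfra at 6.88 to 8.18 and 2.83 to 4.6.

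The test of whether the Foxm1 siRNA acted differently with and without angiotensin II called 2 of the 9 members, where it called 0.921% of all 11180 genes (0.403% higher and 0.519% lower). For Tgfbi, the siRNA effect was lower with angiotensin II by -1.03 ± 0.10 (adjusted p = 4.00e-04, limma), the smallest p of all genes tested, and the call held in all 20 alternatives with values of -1.12 to -0.96. For Cthrc1 the difference was 0.33 ± 0.07 (adjusted p = 0.0422, limma), a smaller fall with angiotensin II on the log2 scale. This call held in 10 of 20 alternatives, all with values of 0.28 to 0.38; it was lost when any of 8 single libraries was left out, namely any of the 3 of si-NC, si-Foxm1 replicate 1 or 2, Ang-II replicate 1, or si-Foxm1+Ang-II replicate 2 or 3 (adjusted p = 0.0641 to 0.11). For Spp1 the difference was -0.23 with an interval of -0.56 to 0.11 (adjusted p = 0.537), for Fn1 0.10 with an interval of 0.01 to 0.19 (adjusted p = 0.266) and for Tnc -0.09 with an interval of -0.19 to 0.01 (adjusted p = 0.388). Postn (-0.02), Sparc (-0.01) and Thbs2 (-0.06) were not called either. Quantile normalization called Sparc as well (-0.18, adjusted p = 0.015), for 1 higher and 2 lower members. The 9 tested macrophage and leukocyte markers had a median of -0.10 in this test and all genes -0.02, and a macrophage part in the member values was not tested. Because control siRNA in the Ang-II group is not stated, a part of siRNA delivery in these differences cannot be told apart.

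**Figure D4:**
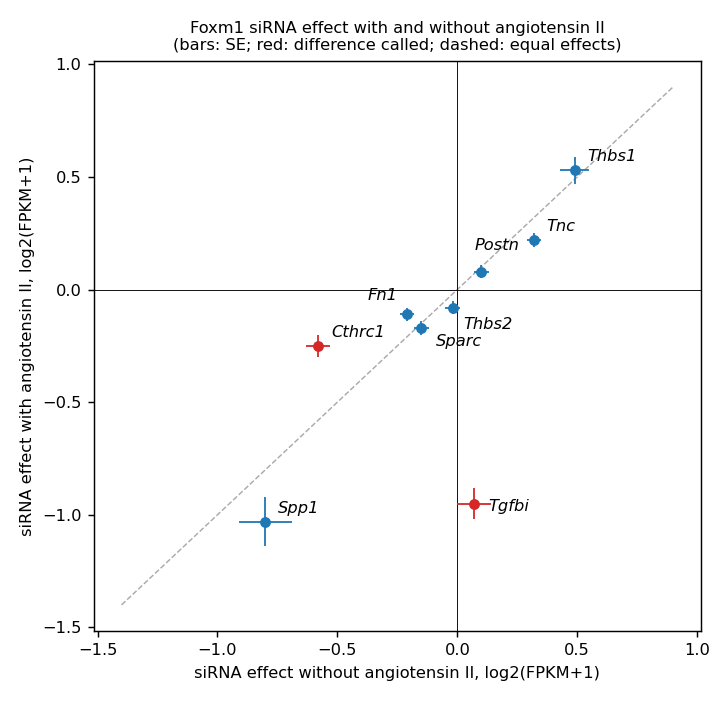
Effect of Foxm1 siRNA on each member without angiotensin II (x axis) and with it (y axis), as log2(FPKM + 1) differences with SE bars; points on the dashed line have equal effects, and red points had a called difference between the effects. Tgfbi lies at 0.07 and -0.95, far below the line, and Cthrc1 above it at -0.58 and -0.25.

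In the combined group against si-NC, which asks where both agents together left the members, 8 of 9 were called beside 65.8% of all genes (39.7% higher and 26.1% lower). Thbs1 (1.03), Cthrc1 (0.94), Tgfbi (0.63), Fn1 (0.24), Postn (0.16) and Sparc (0.07) were higher, Spp1 (-0.47) and Tnc (-0.31) lower, and Thbs2 had an interval of -0.10 to 0.04. The Sparc call (adjusted p = 0.0359, limma) held in 7 of 15 alternatives; it was lost without si-NC replicate 2 or any 1 of the 3 combined libraries (adjusted p = 0.0569 to 0.123). Against si-Foxm1, 7 of 9 were called beside 47.5% of all genes (12.9% higher and 34.6% lower), with Cthrc1, Tgfbi, Thbs1, Fn1, Spp1 and Sparc higher and Tnc lower.

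The other matricellular genes, the CCN family and remaining thrombospondins, tenascins and relatives, had 13 of 23 members above the expression minimum. Angiotensin II raised 7 and lowered 5 of the 13. Ccn4 rose by 0.95 (74.4 to 145 FPKM), Ccn5 by 0.74 and Thbs4 by 0.64, while Ccn3 fell by 1.19. Foxm1 siRNA lowered 8 and raised 2 without angiotensin II (0 raised under median-of-ratios scaling) and lowered 7 and raised 0 with it (11 and 0 under that scaling). The 10 and 7 calls of 13 stand beside 65.7% and 61.4% of all genes called in these contrasts, the 12 of 13 for angiotensin II beside 44.5% and the 10 of 13 for overexpression beside 55.1%. Thbs4 fell by 0.93 (29.1 to 14.8 FPKM) and by 1.06 (45.9 to 21.6 FPKM), Ccn5 by 0.82 and 0.43 and Ccn4 by 0.51 and 0.50. Ccn1, which encodes an integrin ligand, fell by 0.54 without angiotensin II, and its siRNA effect differed with it by 0.34 (adjusted p = 0.0216, limma). Thus Thbs4 fell under the siRNA in the same contrasts in which Thbs1 rose. Overexpression raised 8 and lowered 2: Ccn5 rose by 0.71 and Ccn2, the most abundant of those named here, fell by 0.20 (1034 to 903 FPKM). The list medians were 0.18 for angiotensin II, -0.32 and -0.29 for the siRNA without and with it, and 0.20 for overexpression.

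Of the adhesive glycoproteins and fibulins, 19 of 23 were tested. Angiotensin II raised 6 and lowered 10: Lama2 rose by 0.86 and Fbln5, a fibulin of elastic fibres, by 0.70, while Efemp1 fell by 1.48 (31.2 to 10.6 FPKM) and Nid2 by 0.81. The siRNA raised 4 and lowered 9 without angiotensin II (1 and 14 under median-of-ratios scaling, 2 and 14 under quantile normalization). It raised 2 and lowered 8 with it (1 and 11 under median-of-ratios scaling). The 13 and 10 calls of 19 were near or below the 65.7% and 61.4% of all genes called there; angiotensin II called 16 of 19 beside 44.5% of all genes, and overexpression 11 of 19 beside 55.1%. The laminin chain gene Lamb2 fell by 0.59 in both contrasts, Hspg2 by 0.28 and 0.21, and Emilin1 rose by 0.49 and 0.47. Overexpression raised 8, among them Fbln2 (0.25) and Efemp1 (0.42), and lowered 3, among them Npnt (-0.46) and Matn2 (-0.31).

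Receptors that the members bind, integrins, CD36, CD47, syndecans and LRP1, had 23 of 26 tested in the knockdown arm. Cd36, a thrombospondin receptor, rose under the siRNA by 0.67 without angiotensin II (32.1 to 51.6 FPKM) and by 0.73 with it, and Itga7 fell by 0.64 and 0.70. Itgb1, the common integrin beta chain, fell by 0.25 and 0.21. The siRNA raised 5 and lowered 7 without angiotensin II (5 and 14 under median-of-ratios scaling, 5 and 13 under quantile normalization), and 5 and 7 with it (4 and 13, and 4 and 12). Its 12 calls of 23 in each contrast were below the 65.7% and 61.4% of all genes. Endothelial cells also express Cd36. Of 9 tested endothelial markers, 5 rose and 1 fell without angiotensin II, and 5 rose and 2 fell with it (4 and 2 in each under both scalings). Of all genes, 48.5% and 44% were called higher in these contrasts and 17.2% and 17.4% lower. An endothelial part in the Cd36 values was not tested. Angiotensin II raised 9 and lowered 9 (11 and 7, and 11 and 6): Itga11, a collagen receptor chain of fibroblasts, rose by 1.19 and Lrp1 by 0.64, while Itga8 fell by 1.51 and Sdc4 by 0.80. Angiotensin II called 18 of 23 beside 44.5% of all genes. Under overexpression 7 of 24 rose and 10 fell, beside 55.1% of all genes called; Itgav rose by 0.35, Cd47 by 0.42 and Itgb5 by 0.36, while Itga5, the fibronectin receptor chain, fell by 0.42.

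All 21 genes of TGF-beta ligands, latency and SMAD signalling were tested. Angiotensin II raised 8 and lowered 8 (11 and 7 under quantile normalization); Ltbp2 rose by 2.55 (2.26 to 18.2 FPKM) and Ltbp3 by 0.60, and Smad6, an inhibitory SMAD, fell by 0.61. The siRNA raised 5 and lowered 8 without angiotensin II (2 and 10 under median-of-ratios scaling, 3 and 10 under quantile normalization) and raised 7 and lowered 8 with it (3 and 8 under median-of-ratios scaling). Smad6 fell by 0.79 and 0.62 and Tgfb2 by 0.53 and 0.48. Overexpression raised 9 and lowered 4, among them Smad7, which fell by 0.46. Of genes for matrix assembly, cross-linking and proteolysis, 28 of 29 were tested. Angiotensin II raised 15 and lowered 7, with Lox, the collagen cross-linking oxidase, up by 1.29 (440 to 1078 FPKM), Tll1 by 1.54 and Timp1 by 0.80. The siRNA raised 6 and lowered 12 without angiotensin II (3 and 17 under median-of-ratios scaling, 3 and 12 under quantile normalization) and raised 4 and lowered 10 with it (3 and 16 under median-of-ratios scaling). Lox fell by 0.96 without angiotensin II (440 to 225 FPKM) and by 0.45 with it (1078 to 788 FPKM). On the log2 scale this siRNA effect differed with angiotensin II by 0.51 (adjusted p = 0.00991, limma). Overexpression raised 17 and lowered 8, with Mmp3 up by 1.5 (10.3 to 31.1 FPKM) and Plaur down at -0.87. In these last lists the siRNA called 13 and 15 of 21 and 18 and 14 of 28, near or below the 65.7% and 61.4% of all genes, except 15 of 21 with angiotensin II; angiotensin II called 16 of 21 and 22 of 28 beside 44.5%, and overexpression 13 of 21 and 25 of 28 beside 55.1%. None of the genes named from these lists changed sign in any alternative.

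The genes most like each member across the 18 libraries, out of 11235 with a mean of at least 1 FPKM, were ranked by Pearson's r of log2(FPKM + 1), as a description, since the libraries share 6 group means and their depth. For Tnc they were Nasp (r = 0.991) and Polq (0.99), for Cthrc1 Adamts12 (0.99) and Fbln5 (0.989), for Fn1 Lrp1 (0.986) and Ndrg1 (0.981), and for Sparc Cygb (0.985) and Fstl1 (0.977). For Thbs1 they were Gxylt2 (0.969) and Pmm1 (0.962), for Tgfbi Ctsd (0.949) and Nfe2l1 (0.934), for Spp1 Mgll (0.942) and Dpy19l1 (0.939), for Postn Uso1 (0.918) and Ica1 (0.901), and for Thbs2 Adamts2 (0.909) and Atl3 (0.884). The members with the narrowest range, Thbs2 and Postn, had the lowest values.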

How the data were processed

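The authors deposited 1 table of FPKM values per gene for 18 libraries; 0 of its columns lacked a sample. Per the labels' protocols, RNA was extracted with the mirVana kit and libraries were made with a TruSeq stranded mRNA kit. Per the submitters' processing notes, fastp, HISAT2, HTSeq and the build mm39 were used; their versions, the annotation and the strand setting were not given in the sources used here. All 17960 genes above 0 gave whole fragment counts (within 0.02) when the FPKM were multiplied back, which gave the library totals (14988993 to 19343343) and served the count-based alternative; OE-NC libraries were the shallowest (at most 16384195, the others at least 17450690). A share of the spread is therefore counting error that is larger in low members.

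limma 3.58.1 (R 4.3.3; lmFit and eBayes with trend) was run on log2(FPKM + 1) for genes with a mean of at least 1 FPKM over the libraries of the fit, with 1 fit for the 12 libraries of the knockdown arm and 1 for the 6 of the overexpression arm. All 9 members passed that filter. Adjustment of p-values followed Benjamini-Hochberg over all genes of a fit, with calls under 0.05 and 95% intervals. The scripts were tested on simulated data. Named were all members, up to 4 called genes per list and comparison by p, 2 genes most like each member, and Foxm1; of the list genes, some of those named by the rule are printed. The members, lists and tests were chosen with earlier results of these data known, so the choice is not independent of them. Alternatives were a pseudocount of 0.1, median-of-ratios scaling, quantile normalization, a minimum of 0.1 FPKM or no minimum, only the compared groups or all 6 groups in the fit, the replicate number as a block, limma-voom on recovered counts, and each library left out. Promoter windows are RefSeq's for GRCm38.p6, another build than mm39, and were matched by symbol. Protein sequences were not analysed here.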

Additional observations from a re-analysis of the deposited data

Results flagged for a closer look

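The Foxm1 siRNA effect on Tgfbi with angiotensin II minus the effect without it was -1.03 on the log2(FPKM + 1) scale. It stands out because the difference between the backgrounds was itself tested, by the interaction term of the limma fit over the 12 knockdown-arm libraries (adjusted p = 4.00e-04). All 3 si-Foxm1+Ang-II libraries lay below all 3 Ang-II libraries, whereas si-Foxm1 and si-NC overlapped. Control siRNA in the Ang-II cells is not stated, so Foxm1 loss and siRNA delivery cannot be told apart in this difference.

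The same limma test gave 0.33 for Cthrc1 (adjusted p = 0.0422): the siRNA lowered it in both backgrounds, by less with angiotensin II on the log2 scale. The adjusted p ranged from 0.0178 to 0.147 over its 20 alternatives. In FPKM the Cthrc1 mean went from 44.93 to 29.78 without angiotensin II and from 103.9 to 87.13 with it, which is not a smaller fall.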

How the results depend on the processing

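Of 63 member results (9 members in 7 comparisons), 42 kept their direction and their side of the threshold under every alternative run; of the 981 recomputed values, 38 lost a call, 17 gained one and 20 changed sign, 4 of which are among the lost calls. The number of members called ranged, over libraries left out singly, from 7 to 7 for si-Foxm1 against si-NC, 7 to 8 for Ang-II against si-NC, 7 to 8 for si-Foxm1+Ang-II against Ang-II, 6 to 8 against si-Foxm1, 7 to 8 against si-NC, 1 to 2 for the interaction and 5 to 6 for overexpression. The interaction count was 1 with all 6 groups in the fit and 1 with no filter, where Cthrc1 was lost. Over all genes the interaction called 103, against 169 with all 6 groups, 57 with no filter and 229 by limma-voom on recovered counts.

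Sign changes in si-Foxm1 against si-NC were Postn (-0.03) and Tgfbi (-0.04) under median-of-ratios scaling and Tgfbi (-0.05), Sparc (0.02) and Fn1 (0.14) under quantile normalization. In si-Foxm1+Ang-II against Ang-II they were Postn (-0.01, median-of-ratios) and Fn1 (0.14, quantile). Against si-Foxm1 they were Thbs2 (0.03 quantile, 0.07 median-of-ratios, 0.01 without si-Foxm1 replicate 3, 0.00 without si-Foxm1+Ang-II replicate 2) and Postn (-0.08, quantile). In the interaction they were Thbs1 (-0.06 without Ang-II replicate 3, in a leave-one-out range of -0.06 to 0.09), Postn (0.01 under median-of-ratios and 0.01 without si-Foxm1+Ang-II replicate 2) and Sparc (0.02 under median-of-ratios, 0.00 without si-NC replicate 2, 0.00 without Ang-II replicate 3, in a range of -0.02 to 0.00). In overexpression they were Sparc (-0.03, quantile) and Spp1 (-0.05 without OE-NC replicate 2, in a range of -0.05 to 0.16). Of these, only Postn, Sparc and Fn1 in the siRNA contrasts and Sparc in overexpression had been called, and the cause was not tested.

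Deviations from the group mean were correlated between libraries with the same replicate number at -0.04 to 0.17, with 8 of 21 pairs over 0.1. Pairs with different numbers were not computed, so these values cannot decide whether replicate numbers pair the libraries. With the replicate block, 7, 8, 9, 7 and 8 members were called in the 5 knockdown-arm contrasts, in the order above, 2 in the interaction and 6 in overexpression. The block added Postn (adjusted p = 0.0318) in Ang-II against si-NC and Thbs2 (adjusted p = 0.0164) in si-Foxm1+Ang-II against Ang-II; all-gene calls moved from 7342 to 7411 in si-Foxm1 against si-NC. Counting error limits Tgfbi, Cthrc1 and Spp1 most, at 6.7%, 4.93% and 4.86% in the library where each had its fewest fragments.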
